A study of Mus musculus with 16 samples.

Results

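The comparison described here set the hippocampus of mice of the HA line against that of the LA line on the arrays labelled desipramine. Its members are 8 of the 16 arrays of the study, chosen by label alone: 4 of HA mice and 4 of LA mice, each with a value for 25697 probes. Both lines were bred from Swiss-Webster mice and sorted over generations by how far pain sensitivity falls after a swim, so that HA animals show high and LA animals low swim stress-induced analgesia. The mice were male, the labels give an age of 15 weeks, and by the treatment protocol they received 21 intraperitoneal injections of desipramine hydrochloride (DMI) at 7.5 mg/kg/day. The other 8 arrays, 4 of each line labelled saline, served as a second set in which the same line difference could be measured on separate samples. By the study's methods each array held RNA pooled from several animals of 1 group, so the spread between the 4 arrays of a group is a spread between pools.

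Desipramine is a tricyclic antidepressant that blocks the reuptake of noradrenaline. Stress-induced analgesia is the lowering of pain sensitivity by a stressor, and swimming evokes forms of it that depend on opioid peptides or on other transmitters, depending on the conditions of the swim. Lines selected for its strength also differ in how they behave in tests used for antidepressants. The hippocampus, a target of stress hormones and of monoamine axons, lies next to the lateral ventricle, whose choroid plexus makes the cerebrospinal fluid.

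A limit of the labels bears on every value below. The treatment text attached to the saline-labelled samples is the same as that of the desipramine-labelled ones, and the differences between treatments that the labels give within a line run opposite in sign to the directions stated in the study's text. Treatment is therefore given here as the label of an array. The contrast of HA with LA was always made between arrays that carry the same label, and its sign does not depend on which treatment that label stands for.

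The mean signal per array was between 240.5 and 420.8 in the HA group and between 247.2 and 368.7 in the LA group. At a detection p under 0.05, 13350 to 13693 probes were detected on the HA arrays and 12975 to 13301 on the LA arrays, so that every HA array had more detected probes than every LA array. The part of this gap in the line differences was not tested. Arrays of a group correlated at 0.99 to 0.996 in HA and 0.992 to 0.995 in LA. Of 19 measured genes of hippocampal principal cells, 15 were detected on all 8 arrays.

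The lines differed at 224 probes, which is 0.872% of the probes tested, by a log2 difference over 0.5 and an adjusted p under 0.05 (limma with Benjamini-Hochberg adjustment over all probes). Of these, 101 were higher in HA (0.393%) and 123 were higher in LA (0.479%). They carry the names of 190 genes. The median size of the difference was 0.66 on the log2 scale for these probes and 0.055 for all probes, and 37 differed by more than 1, that is, by more than 2-fold. Without the limit on size, 1265 probes (4.92%) passed the adjusted p, 563 of them higher in HA (2.19%) and 702 higher in LA (2.73%). The values of the 2 lines did not overlap at 219 of the 224 probes, against 10.3% of all probes. The 224 were called on these same values, so this count is high by the choice of probes and is a description. The balance of directions followed the scaling of the arrays: 45.1% of the calls were higher in HA after quantile normalization and 72.5% after scaling each array to its median, with 56 in place of 123 probes higher in LA. Of the 224 probes 146 were still called under median scaling, and the genes named here that were not are given as such. Without at least 1 of the 8 arrays 63 of the 224 were no longer called.

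**Figure D1:**
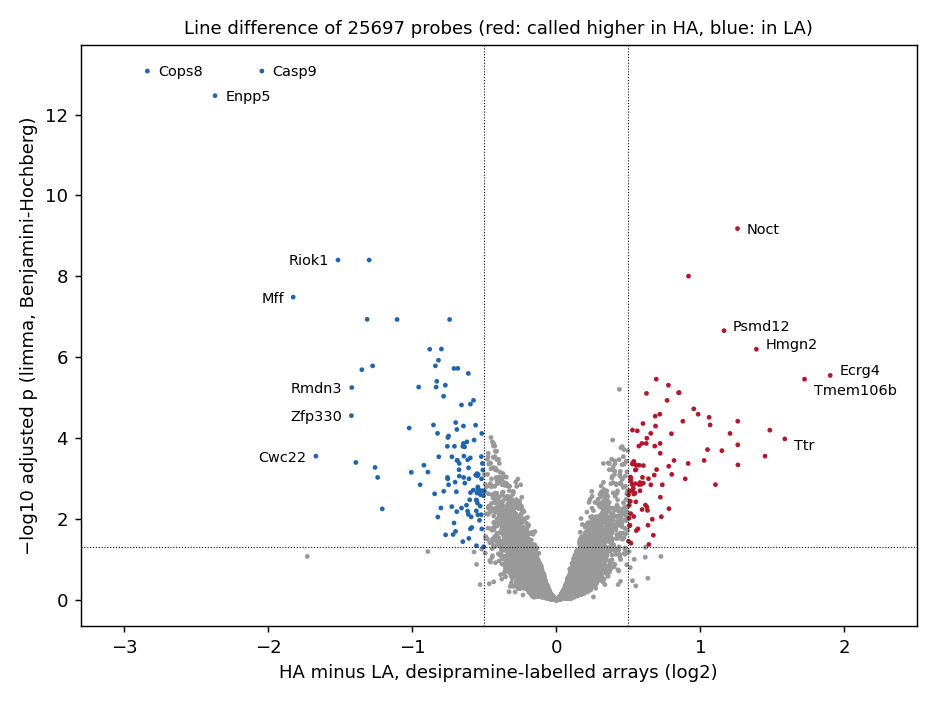
Each point is 1 of 25697 probes, with the HA minus LA log2 difference on the desipramine-labelled arrays on the x axis and −log10 of the adjusted p on the y axis. Dotted lines mark an adjusted p of 0.05 and a difference of 0.5 in either direction, and the 3 points at the top left are Cops8, Casp9 and Enpp5, all higher in LA.

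Cops8, Enpp5 and Casp9 had the largest excess in LA. Cops8 encodes a subunit of the COP9 signalosome, which removes the ubiquitin-like protein Nedd8 from cullin ubiquitin ligases. Its log2 signal was 6.99, 7.07, 6.97 and 6.92 on the HA arrays and 9.94, 9.77, 9.86 and 9.73 on the LA arrays. No array of either line came near the other line, and the difference of −2.84 (SE 0.08, adjusted p = 8.41e-14) is 7.15-fold. Enpp5, a membrane protein of the ectonucleotide pyrophosphatase family, read 8.67, 8.51, 8.42 and 8.55 in HA and 10.91, 10.85, 10.89 and 10.98 in LA, a difference of −2.37 (SE 0.07, adjusted p = 3.41e-13). Casp9 encodes the initiator caspase of the mitochondrial route to apoptosis. Its called probe lay at 6.74, 6.60, 6.73 and 6.69 in HA, where 3 of 4 arrays detected it, and at 8.83, 8.82, 8.60 and 8.68 in LA, a difference of −2.04 (SE 0.05, adjusted p = 8.41e-14). Further Casp9 probes, detected on 6 and 2 of the 8 arrays, had the opposite sign, at 0.25 and 0.12 (adjusted p = 0.116 and 0.171).

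2 of the next genes act at mitochondrial membranes. Mff is the receptor that brings the fission GTPase Drp1 to the outer membrane. Its called probe read 6.68, 6.65, 6.51 and 6.54 in HA, with detection on 1 array only, and 8.71, 8.42, 8.27 and 8.28 in LA, a difference of −1.83 (SE 0.12, adjusted p = 3.27e-08). Rmdn3, a tether between mitochondria and the endoplasmic reticulum, had a difference of −1.42 (SE 0.14, adjusted p = 5.64e-06), with 6.94 ± 0.07 in HA and 8.35 ± 0.22 in LA (SD, n = 4). Riok1, an atypical kinase of small ribosomal subunit maturation, was lower in HA by a similar amount, at −1.51 (SE 0.08, adjusted p = 3.96e-09), and was detected on 1 of 4 HA arrays.

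Cwc22, a spliceosome protein that loads the exon junction complex, had the widest spread among these genes. The probe with the larger difference read 7.67, 8.02, 7.97 and 7.58 in HA and 10.10, 8.69, 9.23 and 9.90 in LA, a difference of −1.67 (SE 0.23, adjusted p = 2.80e-04). All LA arrays stood above all HA arrays, with LA replicates 1 and 4 highest. A second Cwc22 probe gave −1.21 (SE 0.24, adjusted p = 0.00565) with LA replicate 1 again on top at 10.88. Zfp330, a zinc finger protein of the nucleolus, was detected on all LA arrays and on no HA array, so its excess is a bound: at least 2.38-fold higher in LA (adjusted p = 2.79e-05), with measured means of 6.49 and 7.91.

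Rusc2, which binds the small GTPase Rab1, had 2 probes with the same pattern over the arrays. One read 7.76, 8.64, 8.68 and 7.50 in HA against 9.69, 9.53, 9.35 and 9.57 in LA, and the other 7.66, 8.55, 8.58 and 7.61 against 9.37, 9.62, 9.01 and 9.35. HA replicates 2 and 3 stood about a log2 unit above HA replicates 1 and 4 with both probes, and still below every LA array. The differences were −1.39 (SE 0.20, adjusted p = 4.02e-04) and −1.24 (SE 0.20, adjusted p = 9.40e-04). The remaining genes among the largest falls in HA were Hmgxb3 at −1.35, Psmc3ip, a factor of meiotic recombination, at −1.31, D11Wsu47e at −1.30, Adat2, a subunit of the tRNA adenosine deaminase, at −1.27, and Fgfr1op2 at −1.26.

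The genes with the largest excess in HA fall into a set of choroid plexus genes, described further on, and a set with other roles. Tmem106b encodes a lysosomal membrane protein. It read 8.75, 8.56, 8.86 and 8.56 in HA and 6.78, 7.62, 6.61 and 6.84 in LA, a difference of 1.72 (SE 0.16, adjusted p = 3.50e-06). LA replicate 2 stood above the other LA arrays and below every HA array. Hmgn2, a protein that binds nucleosomes and loosens chromatin, read 11.88, 11.74, 11.53 and 11.95 in HA and 10.25, 10.62, 10.50 and 10.18 in LA, a difference of 1.39 (SE 0.11, adjusted p = 6.36e-07). Tmem87a, a membrane protein of the Golgi, differed by 1.48 (SE 0.18, adjusted p = 6.38e-05).

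Noct encodes nocturnin, an enzyme of the circadian system. Its log2 signal was 9.37, 9.48, 9.36 and 9.31 in HA and 8.09, 8.15, 8.11 and 8.15 in LA. The groups were tight and far apart, and the difference of 1.26 (SE 0.06, adjusted p = 6.61e-10) had the smallest adjusted p among the probes higher in HA. Psmd12, a lid subunit of the 19S regulatory particle of the proteasome, read 9.84, 9.82, 9.74 and 9.89 in HA and 8.73, 8.67, 8.63 and 8.60 in LA, a difference of 1.16 (SE 0.09, adjusted p = 2.21e-07). Slc7a14, a lysosomal member of the cationic amino acid transporter family, had 2 probes at 1.26 and 1.21 (SE 0.14 and 0.15). The first read 9.08, 8.38, 8.36 and 8.90 in HA and 7.32, 7.38, 7.49 and 7.48 in LA, so that HA replicates 1 and 4 were the highest.

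Pdrg1, a gene regulated by p53 and DNA damage, was detected on all HA arrays and no LA array and was at least 2.09-fold higher in HA (adjusted p = 1.47e-04), with measured means of 7.74 and 6.48. Rasgrp1, an exchange factor of Ras that answers calcium and diacylglycerol, differed by 1.11 (SE 0.18, adjusted p = 0.00142). Among the genes of energy metabolism, Ndufb10, a subunit of respiratory complex I, differed by 1.06 (SE 0.12, adjusted p = 3.07e-05), with HA arrays between 9.04 and 9.26 and LA arrays between 7.75 and 8.25.

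**Figure D2:**
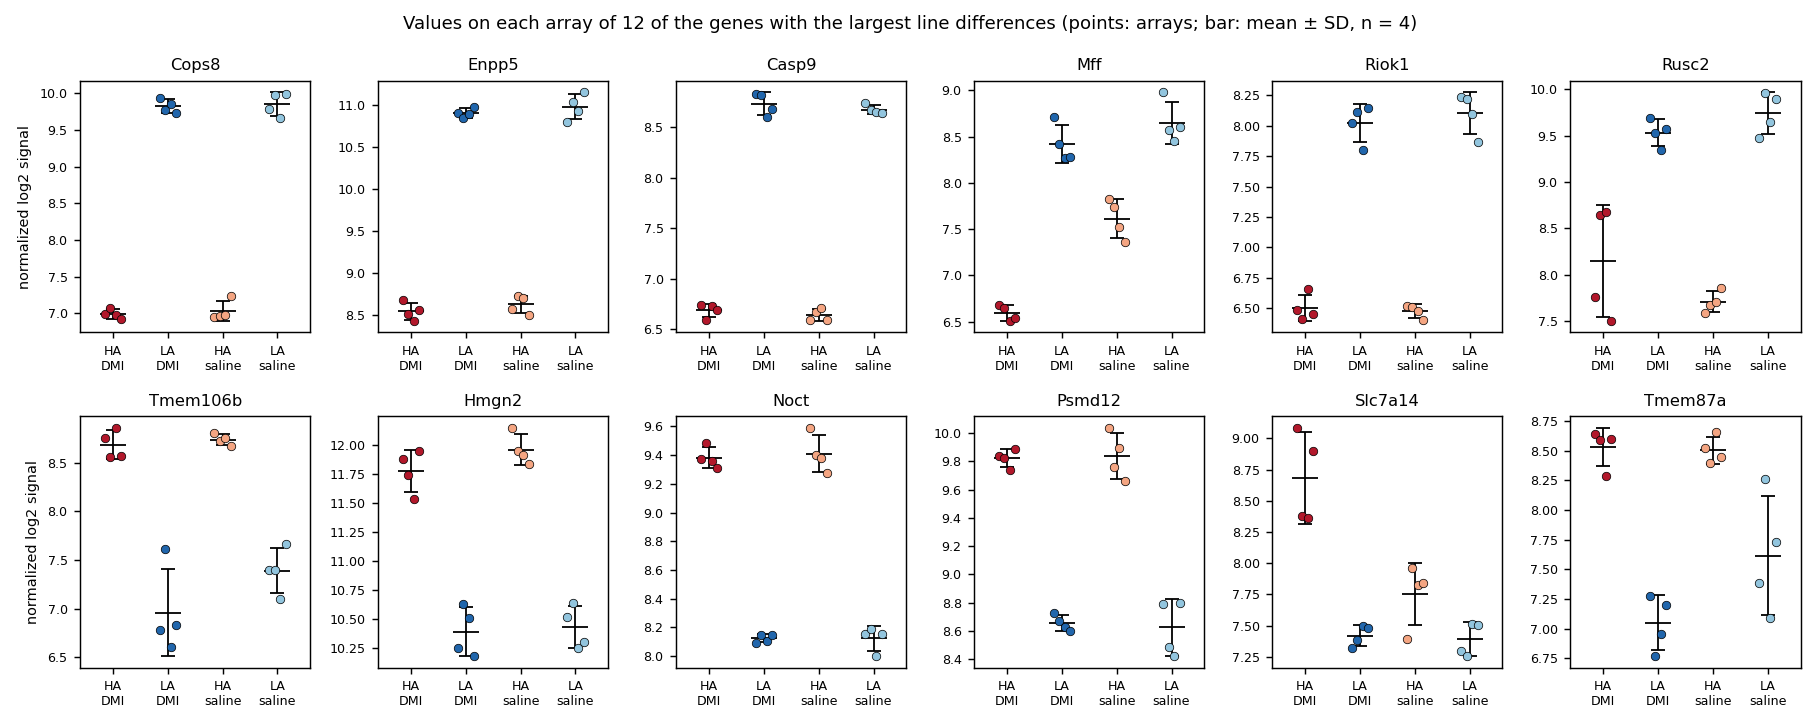
Normalized log2 signal on every array for 12 of the genes with the largest line differences, by line and label; points are arrays, bars are the mean with the SD of 4 arrays, and each panel has its own y axis, which does not start at 0. Cops8, Enpp5, Casp9 and Noct have narrow groups that hold their place under both labels, and the HA arrays of Rusc2 and Slc7a14 are spread widely under the desipramine label.

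Other probes for the same genes did not all share these differences. Among the 28 genes with the largest differences, 9 further probes were detected on all 8 arrays without being called, and 8 of them did not pass the adjusted p (the smallest was 0.18), with differences of at most 0.16 in size. The second probe of Mff read 9.60 ± 0.08 in HA and 9.58 ± 0.08 in LA (SD, n = 4), where the called probe differed by −1.83. The second probes of Riok1, Rmdn3 and Zfp330 differed by −0.09, 0.09 and 0.16, those of Noct and Psmd12 by −0.13 and −0.04, and those of Rasgrp1 and Fgfr1op2 by 0.03 and 0.09. The third probe of Slc7a14 was the exception and followed the other two, at 0.39 (SE 0.05, adjusted p = 1.12e-04). Over all called genes, 85 further probes of 62 genes were detected on all 8 arrays, and their median difference was 0.15 in size. Of these, 60 had the sign of the called probe, and 17 passed the adjusted p, 14 with the same and 3 with the opposite sign. For a gene with such a second probe, the called difference describes the called probe. What the probes of a gene measure apart from each other was not tested.

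16 genes had 2 or more called probes, and in none of them did the called probes differ in direction. Higher in HA were Igfbp2 (0.88 and 0.78), a binding protein of insulin-like growth factors, Nubp2 (0.69 and 0.57), Abhd1 (0.55, 0.54 and 0.52), Aqp1, Folr1 and Slc7a14. Higher in LA were Tsc2 (−0.95 and −0.51), which restrains the growth kinase complex mTORC1, Mef2c (−0.78 and −0.75), a transcription factor of neurons, Igsf11 (−0.82 and −0.52), a synaptic adhesion protein, and Anxa3 (−0.68 and −0.64), besides Cwc22 and Rusc2. The others were Trim9, a ubiquitin ligase of neurons that was at least 1.34-fold and 1.38-fold higher in LA by probes detected on no HA array, Pde1a, a calcium-activated phosphodiesterase, Dmwd and Copg1. Under median scaling both probes of Pde1a, Dmwd and Copg1 and 1 probe each of Tsc2, Igsf11 and Anxa3 were no longer called. The 3 probes of Abhd1 and 1 each of Nubp2, Tsc2, Igsf11, Trim9, Dmwd and Copg1 were near the limit of size and were not called without 1 of HA replicates 3 or 4 or LA replicates 1 to 4, at values from −0.49 to −0.42 in LA's favour and from 0.45 to 0.49 in HA's. The third Copg1 probe went the other way, at 0.35 (adjusted p = 0.00981), as did the third Dmwd probe, at 0.20 (adjusted p = 0.0346). A further Igsf11 probe also had the opposite sign, at 0.19 (adjusted p = 0.197). A Trim9 probe detected on all 8 arrays gave −0.12 (adjusted p = 0.739), and a further Nubp2 probe 0.03. Further probes of Pde1a (−0.38), Mef2c (−0.30) and Aqp1 (0.28) kept the sign of the called ones and passed the adjusted p.

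The starts of a few of these genes are shown to give the sequence context of genes that differed most or that moved with the choroid plexus set. Windows of 300 bases, from 250 before to 50 after the annotated start, were taken from RefSeq (GRCm38.p6) and are written 5′ to 3′ on the strand of the gene. The capitals mark any of 4 motifs searched on both strands: TAATCC, the core that OTX homeodomain factors bind, TATAAA, the TATA box, CACGTG, an E-box read by clock and Myc family factors, and TGACGTCA, the cyclic AMP response element.
Cops8 (chr1:90603175-90603474, + strand): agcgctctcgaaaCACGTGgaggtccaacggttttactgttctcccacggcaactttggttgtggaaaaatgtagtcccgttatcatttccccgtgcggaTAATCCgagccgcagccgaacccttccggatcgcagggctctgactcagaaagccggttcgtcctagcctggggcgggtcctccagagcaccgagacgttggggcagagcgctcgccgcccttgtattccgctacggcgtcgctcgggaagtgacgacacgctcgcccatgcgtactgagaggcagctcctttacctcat
Hmgn2 (chr4:133967942-133968241, − strand): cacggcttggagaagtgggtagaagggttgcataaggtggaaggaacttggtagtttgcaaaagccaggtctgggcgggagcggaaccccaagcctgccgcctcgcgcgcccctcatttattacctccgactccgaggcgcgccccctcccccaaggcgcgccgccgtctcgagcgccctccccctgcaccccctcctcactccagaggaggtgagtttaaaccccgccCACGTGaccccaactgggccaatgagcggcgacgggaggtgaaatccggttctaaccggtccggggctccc
Slc7a14 (chr3:31310270-31310569, − strand): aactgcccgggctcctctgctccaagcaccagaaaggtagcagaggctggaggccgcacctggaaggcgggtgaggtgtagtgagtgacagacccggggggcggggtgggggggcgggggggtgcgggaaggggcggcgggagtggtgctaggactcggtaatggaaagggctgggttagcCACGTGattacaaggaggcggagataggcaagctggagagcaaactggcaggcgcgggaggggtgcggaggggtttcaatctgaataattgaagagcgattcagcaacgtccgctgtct
Cldn2 (chrX:139800558-139800857, + strand): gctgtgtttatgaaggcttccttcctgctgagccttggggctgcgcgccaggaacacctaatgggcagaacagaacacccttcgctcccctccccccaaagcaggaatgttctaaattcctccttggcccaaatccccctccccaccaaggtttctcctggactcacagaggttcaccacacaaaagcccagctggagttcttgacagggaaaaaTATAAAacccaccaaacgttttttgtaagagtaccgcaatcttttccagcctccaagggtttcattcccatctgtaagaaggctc

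The Cops8 window holds an E-box and an OTX core, the Hmgn2 and Slc7a14 windows hold an E-box each, and the Cldn2 window holds a TATA box whose first base lies 35 bases before the start. Of the 28 genes with the largest differences 23 had a window in the table, and 3 of these held the E-box, against 7.15% of all 32851 windows. The OTX core was in 2 of them (against 7.06%), the TATA box in 1 (against 13.6%) and the cyclic AMP response element in 0 (against 1.79%). Of the 15 choroid plexus genes with a window, 0 held the OTX core, 2 held the TATA box and 1 the E-box. Each gene of the 2 sets was counted at 1 window, while the shares over all windows count every annotated window. The hits are matches of letters in short windows and carry no information on binding.

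The choroid plexus genes were the group that differed most from all genes. Of 22 listed genes of this epithelium, 20 were measured, and all 20 had a higher mean in HA. The adjusted p was passed by 16 of the 20 (80%), all higher in HA, against 5.6% of 16597 genes each taken at 1 probe (2.16% higher in HA and 3.43% higher in LA), and 14 also passed the limit on size, against 0.958% of these genes. The median difference was 0.78, against −0.0034 over all genes. The list was chosen with earlier results of these arrays known, so its count is a description. It had 14 to 17 genes past the adjusted p and medians between 0.73 and 1.29 under the other ways of processing and with single arrays left out.

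The secreted proteins are given first. Ecrg4, a peptide precursor made by this epithelium, read 9.25, 9.47, 9.43 and 9.48 in HA and 7.63, 7.26, 7.50 and 7.62 in LA, a difference of 1.90 (SE 0.17, adjusted p = 2.83e-06), the largest of any probe higher in HA. Ttr, transthyretin, carries thyroxine and retinol-binding protein and is the hallmark of the plexus in the brain. Its probe read 14.58, 14.63, 14.63 and 14.48 in HA, where it ranked 3 to 6 among all probes of its array, and 13.45, 12.17, 13.05 and 13.30 in LA, a difference of 1.59 (SE 0.20, adjusted p = 1.05e-04). LA replicate 2 was the lowest. Enpp2, the lysophospholipase D autotaxin, differed by 1.26 (SE 0.18, adjusted p = 4.61e-04), Sostdc1, an inhibitor of Wnt and BMP signals, by 0.92 (SE 0.13, adjusted p = 4.25e-04), and Igfbp2 by 0.88 (SE 0.10, adjusted p = 3.84e-05).

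Channels, transporters, receptors and junction proteins of the epithelium went the same way. Clic6, an intracellular chloride channel protein, read 9.33, 9.40, 9.36 and 9.38 in HA and 7.99, 7.47, 8.07 and 8.13 in LA, a difference of 1.45 (SE 0.20, adjusted p = 2.80e-04). Aqp1, the water channel of the apical membrane, read 7.71, 8.07, 8.09 and 7.93 in HA and 6.95, 6.59, 7.04 and 6.94 in LA with its first probe, a difference of 1.07 (SE 0.12, adjusted p = 4.74e-05), and 0.66 with its second. Folr1, the folate receptor that moves folate into the fluid, differed by 0.95 and 0.66 (SE 0.10 and 0.11). Prlr, the prolactin receptor, differed by 1.15 (SE 0.15, adjusted p = 2.05e-04), and Kl, encoding klotho, by 0.90 (SE 0.14, adjusted p = 0.00102).

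Kcne2, a potassium channel subunit, differed by 0.60 (SE 0.10, adjusted p = 0.0013). Cldn2, the claudin of leaky epithelia, was detected on all HA arrays and on no LA array, and was at least 1.33-fold higher in HA (adjusted p = 4.37e-05), with measured means of 7.10 and 6.49. The transcription factor of the lineage, Otx2, read 7.54, 7.39, 7.69 and 7.64 in HA and 7.02, 6.99, 6.80 and 6.89 in LA, a difference of 0.64 (SE 0.10, adjusted p = 0.00101). The 4 genes that did not pass were Igf2 (0.48, adjusted p = 0.0745), Slc13a4 (0.30, adjusted p = 0.252), Trpv4 (0.15, adjusted p = 0.228) and F5 (0.03, adjusted p = 0.87).

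As a mean over the list after each gene was centred on its mean over the 16 arrays, the HA desipramine-labelled arrays lay between 0.13 and 0.26 and the LA ones between −0.81 and −0.51. Under the saline label the HA arrays lay between 0.40 and 0.48 and the LA arrays between −0.34 and 0.21. The LA desipramine-labelled arrays were thus below all others, and the saline-labelled LA arrays varied most. All 20 genes had a higher mean in HA under the saline label too, where 12 passed the adjusted p and the median difference was 0.46, against −0.0017 over all genes. The share of all genes past the adjusted p under that label is not given here. The difference was larger under the desipramine label for 18 of the 20. The change of the difference between labels had an unadjusted p under 0.05 for 10 of the 20 and an adjusted p under 0.05 for 0 (limma's interaction term). In RNA of whole tissue, fewer cells of a type and less RNA per cell cannot be told apart, and how much plexus each pool contained was not measured. The part of choroid plexus tissue in the line difference of other genes was not tested.

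**Figure D3:**
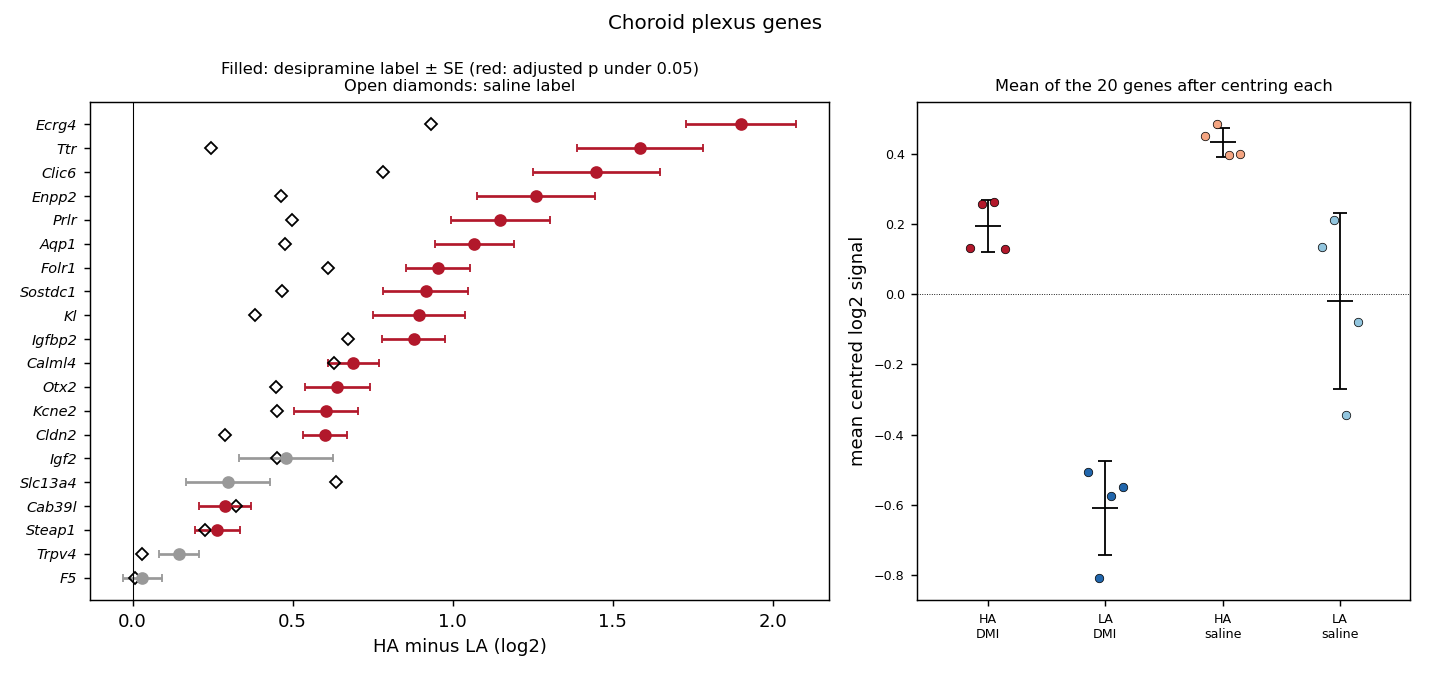
Left, HA minus LA log2 difference of the 20 measured choroid plexus genes, filled circles with the SE on the desipramine-labelled arrays (red where the adjusted p was under 0.05) and open diamonds on the saline-labelled arrays. Right, mean of the 20 centred genes on each array with mean and SD of 4 arrays per group, in which the LA desipramine-labelled arrays, between −0.81 and −0.51, are the lowest.

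The other lists of cell type markers had medians between −0.11 and 0.08. Over all 16597 genes 5.6% passed the adjusted p, 2.16% higher in HA and 3.43% higher in LA, and the counts of the lists below stand beside these shares and were not tested against them. Of the 16 measured genes of microglia and complement 6 passed the adjusted p (37.5%), 3 in each direction. Complement C1qc (0.53, adjusted p = 0.0014), Trem2 (0.36, adjusted p = 0.00458) and Tmem119 (0.29, adjusted p = 0.0428) were higher in HA, and the receptors P2ry12 (−0.61, adjusted p = 0.00641) and Fcer1g (−0.53, adjusted p = 0.00252), with Ly86 (−0.36, adjusted p = 0.00902), were higher in LA. The calls of P2ry12 and Fcer1g were lost under median scaling, that of C1qc without HA replicate 2 (0.45) or LA replicate 1 (0.46), and that of Fcer1g without HA replicates 1 or 3 or LA replicate 3 (−0.49 to −0.48). Of the 19 genes of endothelium, smooth muscle and pericytes 5 passed (26.3%), all higher in LA, with a list median of −0.07. They were Slco1a4 (−0.69), an organic anion transporter of brain vessels, Vwf (−0.53) and Flt1 (−0.52), which were no longer called under median scaling or without single arrays (Vwf −0.49 without HA replicate 4 or LA replicate 3 and −0.44 without LA replicate 4, Flt1 −0.50 without HA replicate 1 and −0.46 without LA replicate 1), Tek (−0.29) and Esam (−0.28). Slco1c1, the thyroxine transporter of brain vessels, is not on that list and read 7.49, 7.71, 7.90 and 7.30 in HA and 8.74, 8.29, 8.66 and 8.79 in LA, a difference of −1.02 (SE 0.12, adjusted p = 5.66e-05).

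Among 19 genes of hippocampal principal cells 4 passed (21.1%), 2 in each direction. C1ql2, a secreted C1q-like protein of dentate granule cells and their mossy fibres, read 10.19, 10.14, 9.87 and 10.19 in HA and 11.02, 11.34, 11.26 and 11.19 in LA, a difference of −1.10 (SE 0.08, adjusted p = 1.17e-07). Prox1, the transcription factor of granule cells, differed by −0.26 (adjusted p = 0.0411). Bok, a Bcl-2 family member, differed by 0.57 (SE 0.07, adjusted p = 1.58e-04) and Wfs1, a marker of the CA1 field, by 0.50 (SE 0.09, adjusted p = 0.00252), at the limit of size, a call lost without HA replicates 2 or 3 or LA replicates 1 or 2 (0.45 to 0.49). Another Bok probe, detected on all 8 arrays, gave 0.11 (adjusted p = 0.695). The lists of striatal projection neurons and of thalamus and habenula, tissues that border a hippocampal dissection, had medians of 0.03 each on the desipramine-labelled arrays, with 0 of 18 and 1 of 22 genes past the adjusted p and 1 of each list at an unadjusted p under 0.05 (limma). On the saline-labelled arrays the same medians were −0.49 and 0.59. Within the groups the desipramine-labelled arrays varied. The centred mean of the striatal list was 0.06, −0.29, −0.35 and 0.06 on HA replicates 1 to 4. That of thalamus and habenula was −0.005, −0.23, −0.27 and 0.02. Over the LA arrays they ran from −0.25 to −0.002 and from −0.44 to 0.08. HA replicates 2 and 3 also parted from 1 and 4 for Rusc2 and Slc7a14, and a link was not tested.

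Of the COP9 signalosome and proteasome list 7 of 39 genes passed (17.9%, against 5.6% of all genes), 6 with higher values in HA and 1, Cops8, with higher values in LA. This list too was chosen with earlier results of these arrays known, and it holds Cops8 and Psmd12, so its count is a description. Psmd12 was followed by Psmb5 (0.48, adjusted p = 8.74e-04), Psmb6 (0.44, adjusted p = 0.0276), Psmb1 (0.40, adjusted p = 0.0108), Psmd11 (0.39, adjusted p = 0.0054) and Psmc1 (0.35, adjusted p = 0.00402). A higher mean in HA was found for 31 of the 39, against 8005 of all 16597 genes. The list median was 0.08 and rose under median scaling, as given further on. Of 69 genes of the respiratory chain 5 passed (7.25%, near the share of all genes), 3 higher in HA and 2 in LA. Ndufb10 and Sdhc, a membrane anchor of complex II (0.82, SE 0.12, adjusted p = 3.58e-04), were the 2 that also passed the limit of size. Of 60 ribosomal protein genes 4 passed (6.67%), all higher in HA, with Rpl27a at 0.46 (adjusted p = 0.00565) and Rps15a at 0.42 (adjusted p = 0.0115).

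Of 32 opioid and pain-related peptides and receptors 2 passed (6.25%, near the 5.6% of all genes), both higher in LA. Cckbr, the brain receptor of cholecystokinin, read 7.79, 7.74, 7.67 and 7.90 in HA and 9.35, 8.02, 8.09 and 8.71 in LA. The difference of −0.77 (SE 0.19, adjusted p = 0.0248) was −0.50 and no longer called without LA replicate 1. The call was also lost under median scaling (−0.59, adjusted p = 0.147), in the fit of the 8 arrays alone (adjusted p = 0.0849) and without HA replicates 1, 2 or 3 or LA replicate 4 (−0.77 to −0.71, adjusted p = 0.0555 to 0.0837). Ntsr1, a neurotensin receptor, differed by −0.24 (adjusted p = 0.0248). The second neurotensin receptor gene, Ntsr2, gave 10.44 ± 0.07 in HA and 10.56 ± 0.11 in LA (SD, n = 4), a difference of −0.12 (SE 0.08, adjusted p = 0.5). Gabrd, the δ subunit of extrasynaptic GABA receptors, had 2 probes at −0.19 (adjusted p = 0.462) and 0.01 (adjusted p = 0.971), and 0 of 15 GABA receptor genes passed (limma, 1 at an unadjusted p under 0.05). Klf5, a zinc finger transcription factor, differed by −0.47 (SE 0.07, adjusted p = 4.40e-04), just under the limit of size, and passed that limit without HA replicate 1 (−0.51), without LA replicate 3 (−0.53) and after background correction (−0.78). Under median scaling it was −0.32 and did not pass the adjusted p (0.101, limma). The study's text cites earlier work on animals that were not stressed, in which Klf5 and receptor genes for neurotensin (Ntsr2) and GABA were upregulated in HA. The values here are of the desipramine-labelled arrays, so the conditions were not alike, and the saline-labelled values of these genes are not given. On the desipramine-labelled arrays Ntsr2, Gabrd and Klf5 did not show that direction, and why was not tested.

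Of 35 monoamine receptors and enzymes 2 passed (5.71%): Htr1a, the serotonin receptor that also restrains serotonin neurons, was higher in HA (0.51, SE 0.12, adjusted p = 0.0147) and Htr2a was higher in LA (−0.24, adjusted p = 0.0235). The Htr1a arrays ran from 8.35 to 8.51 in HA and from 7.83 to 8.08 in LA without overlap, though the call was lost without any one of HA replicate 3 or LA replicates 1, 2 and 4, with values of 0.47 to 0.49. Of 27 genes of the stress hormone axis 3 passed (11.1%), of which Cdkn1a (−0.36, adjusted p = 0.00325) and Hsd11b1, the enzyme that regenerates corticosterone (−0.30, adjusted p = 0.012), were higher in LA and Avp, encoding vasopressin (0.23, adjusted p = 0.0131), was higher in HA. Of 25 immediate early genes 0 passed (limma, 3 at an unadjusted p under 0.05). In the clock list 1 of 20 passed (5%), Per2, a repressor of the circadian loop, at −0.45 (SE 0.06, adjusted p = 9.69e-05), below the limit of size and opposite in sign to the called probe of Noct.

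In the list of synaptic vesicle release 4 of 37 genes passed (10.8%, against 5.6% of all genes), all higher in LA: Unc13b, a priming factor (−0.55, adjusted p = 0.00406, not called under median scaling or, at −0.44, without LA replicate 1), Stx1a (−0.43, adjusted p = 0.0139), Sv2a (−0.26, adjusted p = 0.0106) and Syt13 (−0.21, adjusted p = 0.0407). In the calcium list 6 of 47 passed (12.8%), 5 of them higher in LA, among them Cacna2d1 (−0.43, adjusted p = 0.0176) and Cacnb4 (−0.41, adjusted p = 0.00131), auxiliary subunits of calcium channels. Of those that passed, Calm2 alone was higher in HA (0.50, adjusted p = 0.0191). These counts take each gene at its brightest probe. A dimmer Ppp3ca probe was called higher in HA (0.99 under median scaling), while its brightest probe gave 0.03 (adjusted p = 0.923). A dimmer Slc8a2 probe was called higher in LA, though not under median scaling (−0.42), while its brightest probe gave 0.20 (adjusted p = 0.531). Of 40 potassium channel genes 2 passed (5%), both higher in LA, with Kcnc4 at −0.63 (SE 0.10, adjusted p = 0.0013), a call lost under median scaling. Another Kcnc4 probe, detected on all 8 arrays, gave −0.02 (adjusted p = 0.954). The vesicle release, calcium and potassium channel lists had medians of −0.07, −0.05 and −0.03, which became 0.01, 0.07 and 0.01 under median scaling.

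**Figure D4:**
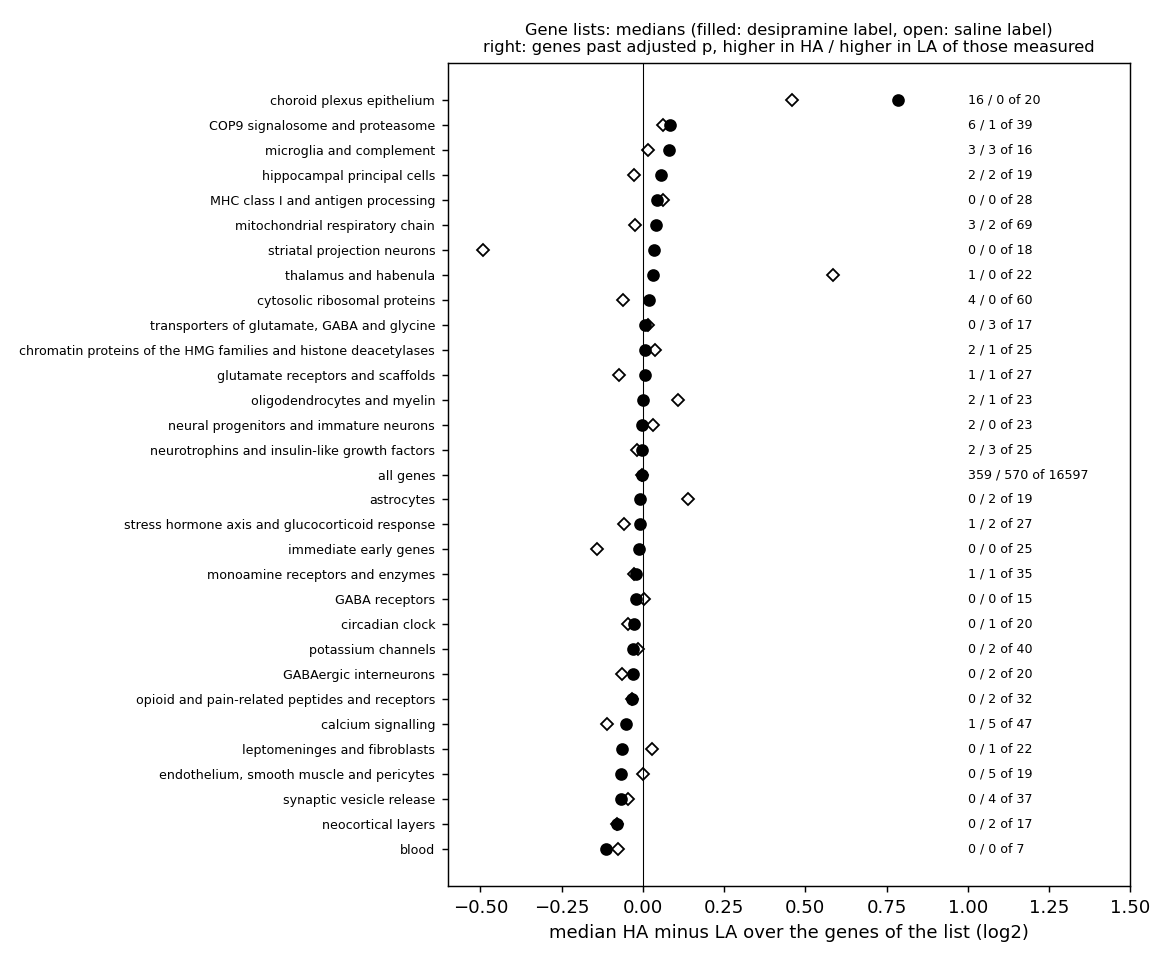
Median HA minus LA log2 difference over the genes of each of 30 lists and over all genes, filled circles on the desipramine-labelled and open diamonds on the saline-labelled arrays; numbers at the right give the genes past the adjusted p that were higher in HA and in LA, of those measured. The choroid plexus list stands at 0.78, and the lists of thalamus and striatum are near 0 under the desipramine label only.

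The second set of arrays asked whether the line difference was there under the other label. These arrays share no sample with the first set. Both contrasts came from 1 fit, however, in which the spread of a probe is taken over all 16 arrays, so the calls under the 2 labels are not independent. On the saline-labelled arrays 314 probes were called (1.22%), 143 higher in HA (0.556%) and 171 higher in LA (0.665%). Both labels called 133 probes, all in the same direction, which is 59.4% of the calls under the desipramine label and 42.4% of those under the saline label. Of the 224 probes 223 had the same sign under the saline label, 180 passed the adjusted p there, and 177 had groups that did not overlap in the same direction, against 10.4% of all probes without overlap in either direction under that label. The shares of all probes for the sign and for the saline adjusted p alone are not given here, so 223 and 180 stand without a background. Across the 224 probes the differences under the 2 labels correlated at r = 0.918 and rho = 0.858, and across all 14583 detected probes at r = 0.669, as a description over probes of the same 16 arrays.

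Several of the largest differences had close values under both labels. Cops8 differed by −2.84 and −2.82, Enpp5 by −2.37 and −2.36, Casp9 by −2.04 and −2.03, Noct by 1.26 and 1.29, Psmd12 by 1.16 and 1.21, and Hmgn2 by 1.39 and 1.53, with the desipramine label first. Tested as the difference of the 2 line differences, 0 of the 224 probes passed the adjusted p (limma, smallest adjusted p 0.13), against 0.00389% of all probes, and 65 had an unadjusted p under 0.05, against 6.97% of all probes. Of these 65, 54 had the larger difference under the desipramine label, where the probes had been called. The difference used for calling is also part of the interaction. Both counts are therefore biased upward by the choice of probes, and the share of all probes is no fair measure for them. The 5 with the smallest interaction p were Tmem145, Zfp330, Anxa3, Ttr and Mff. Zfp330 was detected on no HA array under either label, so no exact differences are given, and its LA mean was 7.91 under the desipramine label and 6.82 under the saline label, where 2 of 4 arrays detected it. The called probe of Mff differed by −1.83 and −1.04, with HA means of 6.59 and 7.61. Ttr differed by 1.59 and 0.25, with LA means of 12.99 and 14.46. The highest value of any probe was 14.9, and Ttr read 14.63 to 14.73 on the HA saline-labelled arrays. How far this upper end of the scale narrows its differences was not tested. Tmem145 was the 1 called probe whose sign changed, from −0.53 to 0.14, and its call was lost under median scaling (−0.36, adjusted p = 0.173), with array weights (−0.49) and without LA replicate 1 (−0.43) or LA replicate 4 (−0.50).

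**Figure D5:**
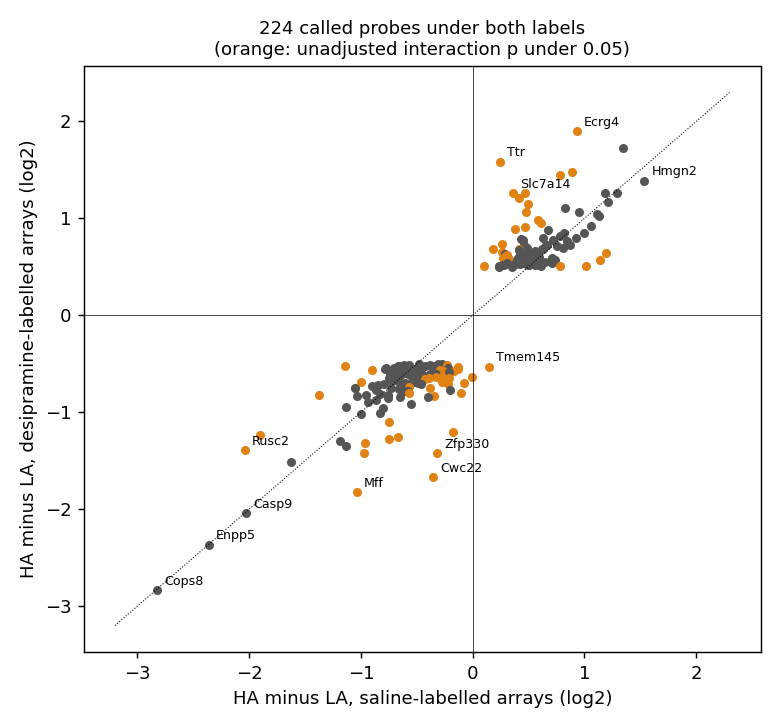
HA minus LA log2 difference of the 224 called probes on the saline-labelled arrays (x axis) and on the desipramine-labelled arrays (y axis), with the dotted line of equal differences. Orange marks the 65 probes with an unadjusted interaction p under 0.05; Cops8, Enpp5 and Casp9 lie on the line, and Ttr and Cwc22 lie away from it.

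Called genes also lay near each other in the genome. In the order of the GRCm38.p6 annotation, 36 of the 190 called genes (18.9%) had another called gene within 10 annotated genes, against 1355 of 16394 other tested genes (8.27%), shares that were not tested against each other. They formed 20 pairs, of which 9 ran in the same and 11 in opposite directions. Slco1a4 and Slco1c1, with 2 annotated genes between them, were both higher in LA (−0.69 and −1.02), as were Senp7 and Trmt10c (−0.82 and −0.84) and Unc13b and Rusc2. Bok and Thap4 are the 1 pair with no gene between, and Bok was higher in HA (0.57) while Thap4 was higher in LA (−0.60, not called under median scaling). Tmem87a (1.48) lay 5 annotated genes from Lrrc57 (−0.59, not called under median scaling or without HA replicate 2 or LA replicate 2, at −0.52 and −0.51), and Sdhc (0.82) lay 6 from Fcer1g (−0.53).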

How the data were processed

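Hippocampal RNA of 4 groups of 4 arrays was measured on 1-colour Illumina MouseRef-8 V2 BeadChips. The intensity values were deposited by the authors as a linear signal per probe and array, neither background-corrected nor normalized, with a detection p-value that sets the probe against the negative controls of its array. The log2 values of the series, deposited by the authors, are per their methods log2 signals after quantile normalization with the R packages beadarray and limma. They matched values recomputed from the signals to within 0.0456 and were used for every result. The number of arrays limits the precision, and p-values measure the spread between pools.

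One linear model with a mean per group was fitted to all 16 arrays with lmFit and eBayes of limma 3.58.1 in R 4.3.3, with 12 residual degrees of freedom, and p-values were adjusted after Benjamini and Hochberg over 25697 probes. Calls needed an adjusted p below 0.05 together with a log2 difference beyond 0.5 in either direction, and the interaction of line and label by the adjusted p alone. The fit was tested on simulated data. Values are normalized log2 signals, errors are the SD of 4 arrays or the SE of the fitted difference, and "at least" folds set the brighter line against the detection limit of the dimmer one. That limit is, per array, the higher of the lowest signal among detected probes and the probe's own signal. In the gene lists a gene is represented by its probe of highest mean, which gave 16597 genes.

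Names came from the platform annotation (23978 probes with 1 symbol, 0 with several, 1719 with none), 23962 gene IDs were found in GRCm38.p6, and 4 unnamed probes, among them those of Prlr, Enpp2 and Phactr1, were named from the study's tables, whose fold changes and p-values were not used. The genes named are the 15 largest called differences in each direction without overlap, genes with several called probes and other probes of those genes, the 5 smallest interaction p-values, up to 4 members per list, Ntsr2, Gabrd and Klf5, and called neighbours; the remaining names were picked with their values in view. The comparison, the lists and the rule were chosen with earlier results of these data known. Alternatives were recomputed quantile normalization, median scaling, background correction, detected probes only, the 8 arrays alone, array weights, a replicate block and leaving out each array. Replicate numbers were not used as pairs, since the deviations of same-numbered HA and LA arrays correlated at r between −0.135 and 0.00882 under the desipramine label and between −0.0531 and 0.108 under the saline label.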

Additional observations from a re-analysis of the deposited data

Results flagged for a closer look

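For 10 of 186 groups of 4 arrays checked, 1 array lay far from the other 3, and chance alone flags about 1 in 20 such groups. The gap of that array to its nearest neighbour, as a share of the range of its group, is given for each. Among HA arrays these were Tmem87a in replicate 3, lowest at 8.29 with the others at 8.59 to 8.64 (0.860), Adat2 in replicate 4, highest at 7.41 against 7.14 to 7.17 (0.879), and the first Abhd1 probe in replicate 4, highest at 7.82 against 7.49 to 7.51 (0.919).

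Among LA arrays, replicate 1 was the highest for a second Abhd1 probe at 7.49 against 7.24 to 7.28 (0.847), for 1 Anxa3 probe at 8.98 against 8.65 to 8.68 (0.894) and for 1 Gabrd probe at 8.30 against 7.82 to 7.88 (0.861), and the lowest for C1qc at 7.49 against 7.73 to 7.76 (0.901). LA replicate 3 was the highest for the first Igfbp2 probe at 7.74 against 7.47 to 7.48 (0.980) and for Htr1a at 8.08 against 7.83 to 7.86 (0.887), and the lowest for the uncalled Psmd12 probe at 7.02 against 7.33 to 7.36 (0.906). Without LA replicate 1 the C1qc difference was 0.46 and no longer called.

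1 probe of 25697 differed between the labels in its line difference, that of Phactr1, a regulator of protein phosphatase 1 and actin. It was not called on the desipramine-labelled arrays, where the log2 signal was 9.27, 9.36, 9.42 and 9.15 in HA and 8.99, 9.26, 9.19 and 9.08 in LA, a difference of 0.17 (SE 0.07, adjusted p = 0.216). On the saline-labelled arrays HA read 8.77, 8.70, 8.69 and 8.72 and LA 9.24, 9.53, 9.39 and 9.32, a difference of −0.65 (adjusted p = 2.16e-05). The difference between the 2 was 0.822 (SE 0.10, adjusted p = 0.00489, limma's interaction term). At an unadjusted p under 0.05 there were 1792 such probes, which is 6.97%.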

How the results depend on the processing

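On the desipramine-labelled arrays, median scaling left 204 calls, 148 higher in HA and 56 in LA, with 146 of the 224 probes still called, and background correction before quantile normalization gave 588, 278 higher in HA and 310 in LA, with 219 of the 224 still called. On the saline-labelled arrays median scaling gave 403 higher in HA and 45 in LA, and background correction 816, with 406 and 410. The interaction gave 1 probe as reported, 0 under median scaling (781 at an unadjusted p under 0.05), 3 after background correction, 2 with detected probes only and 2 with the replicate block. With single arrays left out, the calls ranged from 212 to 266 on the desipramine-labelled arrays (96 to 115 higher in HA, 111 to 151 higher in LA), from 256 to 366 on the saline-labelled arrays (123 to 173 and 133 to 198) and from 1 to 28 for the interaction, with 28 without LA saline replicate 2 and 8 without LA saline replicate 3. The replicate block gave 227 and 313 calls on the 2 sets, and 0 of the 4 HA desipramine-labelled arrays correlated best with the LA array of their own number. Why counts moved was not tested. Of 1380 values of named probes under these alternatives, 1292 stayed on their side of the threshold, 84 fell under it and 4 passed it. 0 values of called probes changed sign, and 12 values of 6 probes that were not called did. Signal over background limits the probes near detection: 9 of the 224 called probes were undetected on all arrays of 1 line. Of 330 medians of gene lists 26 moved by more than the spread, and under median scaling that of the COP9 signalosome and proteasome went from 0.08 to 0.27.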

Other observations

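Some further called genes, picked with their values in view, are given as values only. Mdh2, the mitochondrial malate dehydrogenase, was higher in HA by 0.63 (SE 0.08, adjusted p = 1.01e-04, limma), Pgm1, a phosphoglucomutase, by 0.72 (SE 0.08) and Lpl, lipoprotein lipase, by 0.72 (SE 0.13). Scn1a, a sodium channel subunit, was higher in LA with a difference of −0.59 (SE 0.12), which was not called under median scaling (−0.41, adjusted p = 0.218). Cd200, a ligand that restrains microglia, read 6.68, 6.67, 6.55 and 6.66 in HA, where 2 of 4 arrays detected it, and 7.61, 7.69, 7.25 and 7.42 in LA, while its second probe gave −0.20 (adjusted p = 0.0818).

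Large mean differences of a pair of smooth muscle genes did not pass. Csrp1, a LIM protein, differed by −1.73 (SE 0.55, adjusted p = 0.0847), and Acta2, smooth muscle actin, by −0.89 (SE 0.27, adjusted p = 0.0641).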
